A study of Mus musculus with 11 samples.

Results

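The cadherin and desmosome genes of basal and luminal cells of the pubertal mouse mammary gland were followed through 10 members: the classical cadherins Cdh1 and Cdh3, the catenins Ctnnb1 and Ctnnd1, the desmosomal cadherins Dsg2, Dsc2 and Dsc3, and the plaque genes Dsp, Pkp1 and Pkp2. They were listed by symbol and found among the 27179 gene identifiers of the count table, and all 10 were among the 17370 genes that passed the filter on low counts. The samples were C57BL/6 females aged 5 weeks that carried an E-cadherin-GFP reporter, and no other genotype or treatment was compared. Terminal end buds (TEBs, the growing tips of the ducts) and the subtending ducts were micro-dissected, with GFP as the guide to the TEBs. Lineage-negative CD29+CD24+ cells were then sorted into luminal cells with high GFP and basal cells with low GFP. RNA was sequenced in 11 libraries, with 3 each of basal duct, basal TEB and luminal TEB and 2 of luminal duct, where another sample had been discarded for low cell numbers. Each library came from a pool of at least 2 mice, so p-values measure the spread between pools.

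Classical cadherins hold neighbouring epithelial cells together at adherens junctions, where their tails bind beta-catenin and p120-catenin and through them the actin cytoskeleton. Desmosomes are a separate junction, in which desmogleins and desmocollins bind through plakoglobin and plakophilins to desmoplakin and so to keratin filaments. In the mammary gland E-cadherin is the cadherin of the inner luminal layer and P-cadherin that of the outer basal (myoepithelial) layer.

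Pkp1 was lower in basal than in luminal cells in TEBs. In ducts it was higher in basal cells, a difference that missed the threshold under 14 of 27 alternative settings. Cdh3 and Dsc3 were present in every basal library and at or near 0 in every luminal library, and Pkp2 had the opposite distribution. Pkp1 was the member that differed most clearly between TEB and duct: in basal cells of TEBs it was 3.87-fold lower than in basal cells of ducts. Levels are given as CPM, a gene's counts scaled to the size of its library after correction for composition by the TMM method, and each difference is a log2 fold change from the quasi-likelihood F test of edgeR. The p-values were adjusted by Benjamini-Hochberg over all 17370 genes, and a gene was called at an adjusted p (FDR) below 0.05. Where a value is given without luminal duct 1 or luminal duct 3, the other luminal duct library stood alone in its group and was assumed to vary like the other groups.

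**Figure D1:**
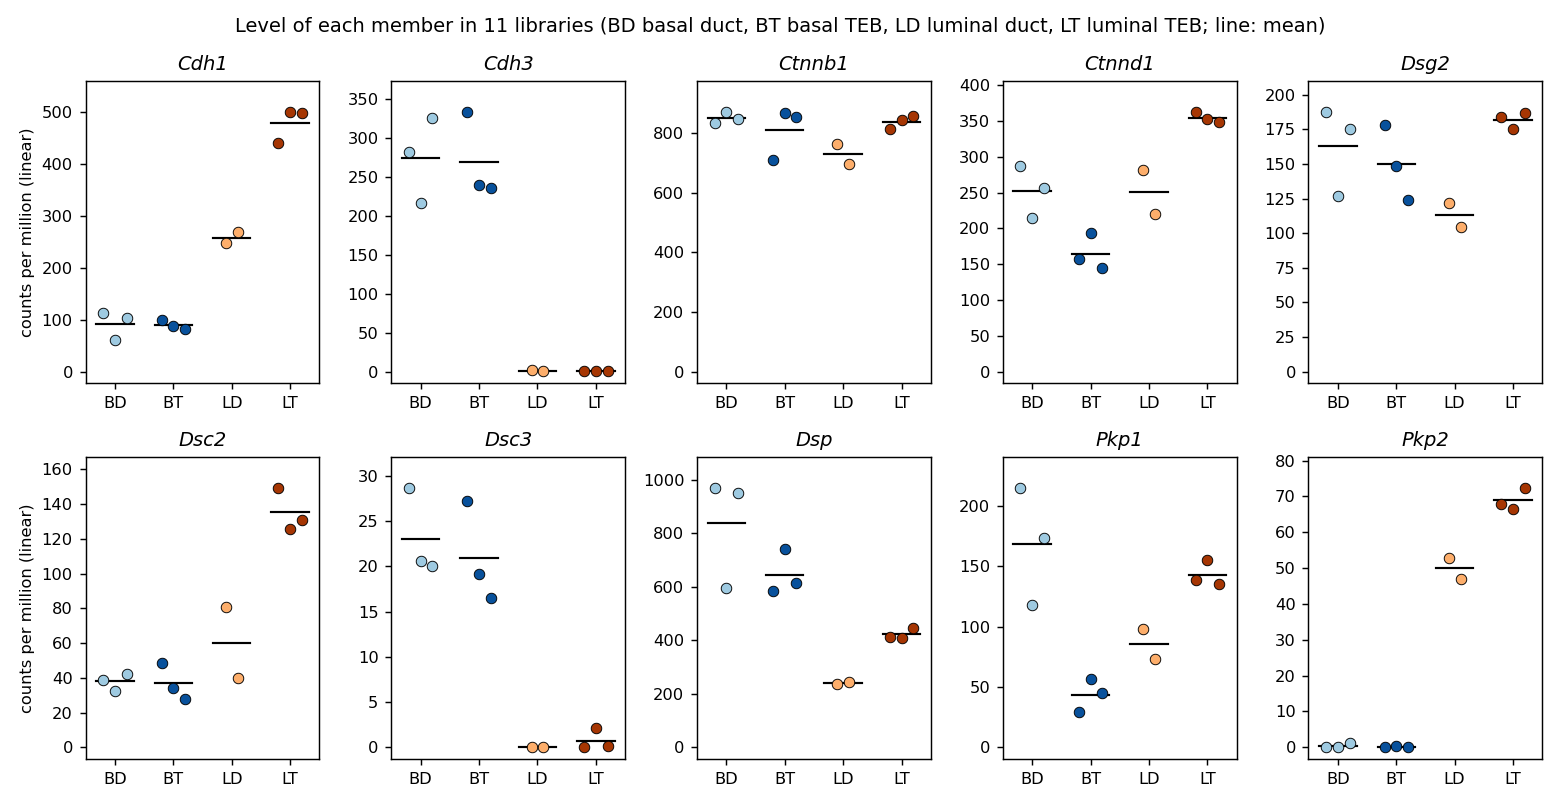
CPM of each of the 10 genes (linear axis, a scale for each gene) in 11 libraries, 1 point per library, with the group mean as a line. Pkp1 in basal TEBs (29.0 to 56.6 CPM) lies below all other groups, and Cdh3, Dsc3 and Pkp2 are each at or near 0 in 1 of the 2 cell layers.

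Library totals ran from 27989137 to 49221436 counts, and a count of 3, used as the floor for a gene at 0, was worth between 0.0572 and 0.173 CPM. The share of counts on mitochondrial genes was 37.5% in basal TEB 1, 28.5% in luminal duct 3 and 17.8% in basal TEB 3, and between 4.34% and 10.9% in the other libraries. The sorted layers carried their markers: 6 basal markers summed to between 5241 and 18420 CPM in basal libraries and between 13.1 and 222 CPM in luminal ones, and 7 luminal markers to between 10450 and 16270 CPM in luminal and between 259 and 530 CPM in basal libraries. Markers of fibroblasts, immune cells, adipocytes and endothelium were raised in basal duct 2 (840, 82.8, 182 and 156 CPM) and luminal duct 3 (250, 191, 75.1 and 24.9 CPM) relative to the other libraries of their groups.

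Cdh1 encodes E-cadherin, the gene whose reporter was used for the sort, so its difference between layers is a check of the gate and not a result. Its level was 112, 61.4 and 103 CPM in basal ducts, 99.4, 86.8 and 82.1 CPM in basal TEBs, 248 and 268 CPM in luminal ducts, and 440, 499 and 498 CPM in luminal TEBs. All luminal libraries lay above all basal libraries, by 2.80-fold in ducts and 5.36-fold in TEBs. Basal libraries therefore held measurable Cdh1 RNA under the gate. Its mean ± SD over 3 libraries each was 92.2 ± 27.0 CPM for ducts and 89.4 ± 8.96 CPM for TEBs. The basal libraries also held between 259 and 530 CPM of the 7 luminal markers, and the part of luminal cells in their Cdh1 level was not tested. Whether the counts include transcripts of the reporter allele is not given in the sources used here.

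The Cdh1 reporter also guided the dissection of TEBs, so a difference of Cdh1 between TEBs and ducts is not free of that selection. Within luminal cells, Cdh1 was 1.86-fold higher in TEBs than in ducts (log2 difference 0.89, SE 0.24), and the libraries did not overlap, but the gene missed the threshold (edgeR FDR 0.0929). It passed the threshold without basal duct 2 (log2 difference 0.89, edgeR FDR 0.027), a library of another group that enters the shared fit. In basal cells the log2 difference was -0.04 (SE 0.21, edgeR FDR 0.963), with a 95% interval from -0.50 to 0.42.

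Cdh3 encodes P-cadherin and lies 46438 bases from Cdh1 on chromosome 8 (106510852 to 106556911, GRCm38). Its level was 281, 217 and 326 CPM in basal ducts and 333, 240 and 236 CPM in basal TEBs. In luminal libraries it was 1.89 and 0.123 CPM in ducts and 1.39, 1.14 and 0.983 CPM in TEBs, the 0.123 CPM of luminal duct 3 being 3 counts. The groups of the 2 layers were far apart, with log2 differences between basal and luminal cells of 7.96 (SE 0.73, edgeR FDR 1.36e-05) in ducts and 7.84 (SE 0.60, FDR 2.18e-06) in TEBs. The duct value depended on which luminal duct library was used, being 11.08 without luminal duct 1 and 7.18 without luminal duct 3. Between TEBs and ducts the log2 difference was -0.03 (SE 0.44, edgeR FDR 0.998) in basal cells. In bulk RNA, fewer cells of a type and less RNA per cell cannot be told apart, here as for every level below.

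Compared per length, as RPKM (CPM divided by gene length in kilobases), P-cadherin was the leading classical cadherin of basal cells. Of the summed RPKM of Cdh1, Cdh3 and Cdh2 (N-cadherin), Cdh3 held 68.2% ± 5.37 (SD, n = 3) in basal ducts and 59.5% ± 4.82 (SD, n = 3) in basal TEBs. Cdh1 held 20.4% ± 2.52 and 18.0% ± 0.513 there, against at least 99.0% in each luminal library. Cdh2 held between 6.60% and 15.3% in the basal duct libraries and between 17.3% and 25.4% in the basal TEB libraries, so its shares did not overlap, while the test of its level found no call between TEBs and ducts (log2 difference 1.00, SE 0.96, edgeR FDR 0.69).

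**Figure D2:**
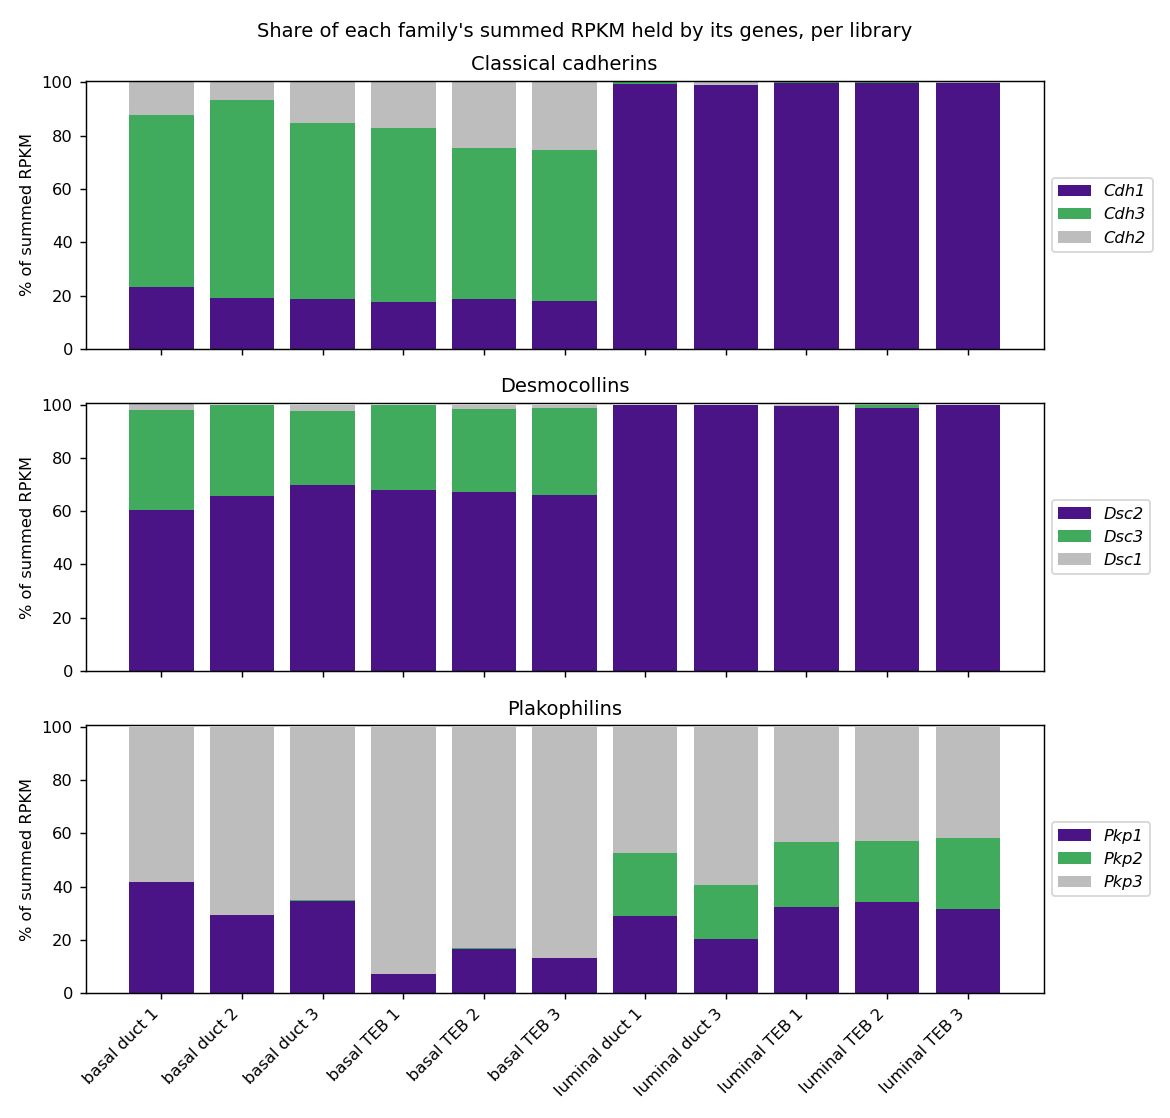
Share (%) of the summed RPKM of 3 gene families held by each gene, 1 bar per library, for classical cadherins, desmocollins and plakophilins. Pkp1 holds between 29.4% and 41.7% of the plakophilin RPKM in basal ducts and between 7.09% and 16.7% in basal TEBs, and Cdh1 and Dsc2 hold nearly the whole of their families in luminal libraries.

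Ctnnb1 encodes beta-catenin, which links classical cadherins to alpha-catenin and also carries Wnt signals to the nucleus (chromosome 9, 120933400 to 120960507, GRCm38). It was the most even member, between 697 CPM in luminal duct 3 and 870 CPM in basal duct 2, and it was called in none of the 5 comparisons (lowest edgeR FDR 0.424; lowest unadjusted p 0.257, so none lay under an unadjusted 0.05; across all alternatives in the closing section the lowest FDR was 0.237). Its group means ran from 730 ± 47.3 CPM (SD, n = 2) in luminal ducts to 850 ± 18.3 CPM (SD, n = 3) in basal ducts, and its mean RPKM of 201.5 to 235 was the highest of the 10 members in every group. Mir7090 overlaps the gene but has no row in the count table.

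Ctnnd1 encodes p120-catenin, which binds the cadherin tail and holds cadherins at the cell surface (chromosome 2, 84587096 to 84658977, GRCm38). Its level was 288, 214 and 257 CPM in basal ducts, 157, 194 and 144 CPM in basal TEBs, 282 and 220 CPM in luminal ducts, and 363, 353 and 349 CPM in luminal TEBs. No difference between the layers was detected in ducts, with a basal-minus-luminal log2 difference of 0.01 and a 95% interval from -0.42 to 0.44, whereas in TEBs the basal libraries all lay below the luminal ones. There Ctnnd1 was 2.15-fold lower in basal cells (log2 difference -1.10, SE 0.18, edgeR FDR 0.000681).

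By point estimate, that gap in TEBs had a part in each layer, but neither part was called alone by edgeR's quasi-likelihood test. DESeq2 called the basal part (log2 difference -0.65, DESeq2 FDR 0.0108), beside 5.03% of all genes. Ctnnd1 was 1.53-fold lower in basal TEBs than in basal ducts without overlap (edgeR FDR 0.14) and 1.41-fold higher in luminal TEBs than in luminal ducts without overlap (FDR 0.242). The test of the difference between the 2 changes gave a log2 value of -1.11 (SE 0.27, edgeR FDR 0.108), which passed without basal TEB 2 (FDR 0.0393) or without luminal duct 1 (FDR 0.0333, with 1 luminal duct library). The difference between the 2 changes was also called by edgeR's likelihood ratio test and by DESeq2, which called 3.62% and 4.10% of all genes there. Among its relatives Ctnnd2, Arvcf and Pkp4, Ctnnd1 held 76.3% ± 0.777 (SD, n = 3) of the summed RPKM in luminal TEBs, 64.1% ± 2.62 (SD, n = 2) in luminal ducts, 43.8% ± 5.70 (SD, n = 3) in basal ducts and 29.0% ± 3.34 (SD, n = 3) in basal TEBs.

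Dsg2, the desmoglein of simple epithelia, was shared by both layers. Its level was 188, 127 and 175 CPM in basal ducts, 178, 149 and 124 CPM in basal TEBs, 122 and 105 CPM in luminal ducts, and 184, 176 and 187 CPM in luminal TEBs. The luminal ducts were the lowest group, and the other 3 groups overlapped. No comparison of Dsg2 was called, the lowest FDR being 0.103 for basal against luminal ducts (log2 difference 0.52, SE 0.21, edgeR quasi-likelihood test; unadjusted p 0.0311), and that comparison passed without basal duct 2 (FDR 0.036). By RPKM Dsg2 held at least 91.9% of the desmoglein family in each library. Gm46630 and Gm16090 overlap Dsg2 and have no row in the count table, and since the library kit does not mark strand their reads cannot be told from those of Dsg2.

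Dsc2, the desmocollin partner of Dsg2 in simple epithelia, was mainly luminal in TEBs. It was at 38.8, 32.6 and 42.3 CPM in basal ducts and 48.5, 34.4 and 27.8 CPM in basal TEBs, with overlap, and at 149, 126 and 131 CPM in luminal TEBs. The luminal duct libraries disagreed, at 80.8 and 39.9 CPM, the lower being the library with 28.5% mitochondrial counts. In TEBs the level was 3.68-fold lower in basal than in luminal cells (log2 difference -1.88, SE 0.28, edgeR FDR 0.000328).

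In ducts the difference of Dsc2 between layers was not called (log2 difference -0.67, SE 0.30, edgeR FDR 0.129) and rested on which luminal duct library was used, being -1.09 (FDR 0.019) without luminal duct 3 and -0.07 (FDR 0.906) without luminal duct 1, each against a single library. The difference between luminal TEBs and luminal ducts also rested on that choice, at 1.17 (SE 0.31, edgeR FDR 0.0902) with both libraries, 0.74 (FDR 0.371) without luminal duct 3 and 1.76 (FDR 0.0112) without luminal duct 1, again with 1 library in the duct group and the spread taken from the other groups.

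Dsc3, a desmocollin of the basal layer of stratified epithelia, was in every basal library and above the floor in 2 of the 5 luminal libraries. It was at 28.7, 20.6 and 20.0 CPM in basal ducts and 27.2, 19.2 and 16.5 CPM in basal TEBs, where the groups overlapped (log2 difference -0.14, SE 1.05, edgeR FDR 0.982). This SE comes from the fit over all groups, with luminal libraries at or near 0, and is not the spread of the basal pools alone. Both luminal duct libraries held 0 counts, so basal ducts were at least 241-fold higher by the mean over the mean floor of 3 counts per library (edgeR FDR 0.00406). Luminal TEBs held 0, 111 and 7 counts, or 0, 2.12 and 0.135 CPM, so that luminal TEB 2 stood apart, and the log2 difference between layers in TEBs was 4.79 (SE 1.24, edgeR FDR 0.0157). It was 8.14 (FDR 0.000334) without luminal TEB 2, and the call was lost without luminal TEB 3 (FDR 0.0528).

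Of the desmocollin RPKM, Dsc3 held between 27.6% and 37.3% in the 6 basal libraries and at most 1.38% in the 5 luminal libraries, with Dsc2 making up nearly the whole of the rest. Epidermal keratinocytes also use Dsc3. Their 4 measured markers (Krt1, Krt10, Ivl and Flg) summed to between 0 and 7.58 CPM in basal and between 4.76 and 25.3 CPM in luminal libraries. The part of keratinocytes in the Dsc3 level was not tested.

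Dsp encodes desmoplakin, which ties the plaque to keratin filaments (chromosome 13, 38151294 to 38198577, GRCm38). Its level was 970, 595 and 950 CPM in basal ducts, 583, 741 and 613 CPM in basal TEBs, 238 and 244 CPM in luminal ducts, and 413, 408 and 446 CPM in luminal TEBs. Every basal library lay above every luminal library, and the gap was wider in ducts. Basal cells were 3.48-fold higher in ducts (log2 difference 1.80, SE 0.25, edgeR FDR 0.000235) and 1.53-fold higher in TEBs (0.61, SE 0.21, FDR 0.0473). The TEB call was near the threshold and was lost on leaving out any 1 basal or luminal TEB library, basal duct 1 or basal duct 3 (FDR 0.053 to 0.163). The difference between the 2 gaps was not called (log2 value -1.18, SE 0.31, edgeR FDR 0.132). It was called by edgeR's likelihood ratio test and by DESeq2, which called 3.62% and 4.10% of all genes there.

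RefSeq start-site windows of 300 bases were read for the members that had one, since E-boxes of the letters CAGGTG are bound by Snai and Zeb factors. Both strands were searched. Of the members, Ctnnb1, Ctnnd1 and Dsp matched, with 5 windows in all. The motif was found in 1 of the 5, against 20.2% of all 32851 windows, and it is shown because Dsp was the one member of the basal set with a window. Its first base was base 4 of the transcript, counting the start as 1, on the plus strand at chr13:38151285-38151314 (GRCm38.p6), with the motif in capitals:
Dsp: gaagaagccgacCAGGTGtggcctgggcgc
A match of letters is a description and says nothing of binding, which was not measured in these libraries.

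Pkp1 encodes plakophilin 1, a plaque protein that gathers desmosomal cadherins and desmoplakin and is best known from stratified epithelia (chromosome 1, 135871394 to 135919207, GRCm38). Its level was 215, 118 and 173 CPM in basal ducts and 29.0, 56.6 and 45.1 CPM in basal TEBs. All basal TEB libraries lay below all basal duct libraries, with means of 43.6 ± 13.9 and 169 ± 48.6 CPM (SD, n = 3 each). The log2 difference was -1.95 (SE 0.27, edgeR FDR 0.00545).

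The call held when any 1 of the 11 libraries was left out, with log2 differences from -2.23 to -1.73 and an FDR of at most 0.042, and it held without both libraries of highest mitochondrial share (log2 difference -1.73, FDR 0.014). Without scaling for composition it was not called (log2 difference -2.02, edgeR FDR 0.0755). Several marker sums were also lower in basal TEBs than in basal ducts: 6 basal markers summed to between 5241 and 8159 CPM against between 14660 and 18420, 7 luminal markers to between 259 and 300 CPM against between 450 and 530, and 6 fibroblast markers to between 226 and 406 CPM against between 430 and 840. The part of these in the Pkp1 difference was not tested. Pkp2, at 47.0 to 72.4 CPM in luminal cells, was at most 1.08 CPM in any basal library.

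In luminal cells the difference of Pkp1 had the opposite sign and was not called. It was at 98.3 and 73.0 CPM in luminal ducts and 139, 155 and 135 CPM in luminal TEBs, without overlap and 1.67-fold higher in TEBs (log2 difference 0.74, SE 0.30, edgeR FDR 0.245). The test of the difference between the basal and the luminal change gave a log2 value of -2.69 (SE 0.41, edgeR FDR 0.0199), and Pkp1 was the only one of the 10 members called there. That call was lost (FDR 0.0533 to 0.0711) without basal duct 1, basal TEB 3, luminal duct 3 or any 1 luminal TEB library, although the log2 value stayed between -2.95 and -2.48 with 1 library left out.

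The order of the layers thus differed between structures. In ducts Pkp1 was 1.97-fold higher in basal than in luminal cells (log2 difference 0.98, SE 0.30, edgeR FDR 0.0373), and in TEBs it was 3.28-fold lower in basal cells (log2 difference -1.71, SE 0.27, FDR 0.000553). The TEB call held under each of the 27 alternatives (highest FDR 0.00406), while the duct call was lost under 14 of 27, among them leaving out basal duct 1 (FDR 0.129), basal duct 3 (FDR 0.0791), luminal duct 1 (FDR 0.0526) or luminal duct 3 (FDR 0.209). By group mean the order was basal ducts (169 CPM), luminal TEBs (143 CPM), luminal ducts (85.6 CPM) and basal TEBs (43.6 CPM). The libraries of the first and second groups overlapped, and those of the other neighbours did not.

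Pkp2 encodes plakophilin 2, the plakophilin of simple epithelia and heart (chromosome 16, 16213345 to 16272712, GRCm38). It was at 52.9 and 47.0 CPM in luminal ducts and 68.0, 66.4 and 72.4 CPM in luminal TEBs. Basal ducts held 3, 0 and 42 counts and basal TEBs 0, 16 and 0 counts, none above 1.08 CPM. The groups of the 2 layers did not overlap (edgeR FDR 0.00103 in ducts and 0.000299 in TEBs), and the fitted fold is not given because most basal libraries were at or below the floor. Luminal TEBs were 1.38-fold above luminal ducts, without overlap and without a call (log2 difference 0.47, SE 0.98, edgeR FDR 0.856). This SE comes from the fit over all groups, with basal libraries at or near 0, and is not the spread of the luminal pools alone.

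The plakophilin makeup per length therefore differed between the groups. Pkp3, which is found in most desmosomes, held the largest share in each of the 11 libraries, and its level in CPM did not differ by a call between TEBs and ducts of either layer (basal log2 difference 0.06, SE 0.17, edgeR FDR 0.914; luminal -0.01, SE 0.19, FDR 1). In basal TEBs it held 87.5% ± 4.97 (SD, n = 3) of the plakophilin RPKM beside 12.4% ± 4.88 for Pkp1, and in basal ducts 64.7% ± 6.17 beside 35.2% ± 6.18 (SD, n = 3). Luminal TEBs divided theirs among Pkp1 (32.7% ± 1.31), Pkp2 (24.6% ± 1.80) and Pkp3 (42.7% ± 0.700), n = 3, and luminal ducts among Pkp1 (24.6% ± 6.01), Pkp2 (22.2% ± 2.62) and Pkp3 (53.3% ± 8.63), n = 2. The summed plakophilin RPKM was 106 ± 13.8 in basal ducts and 80.6 ± 9.25 in basal TEBs (SD, n = 3).

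**Figure D3:**
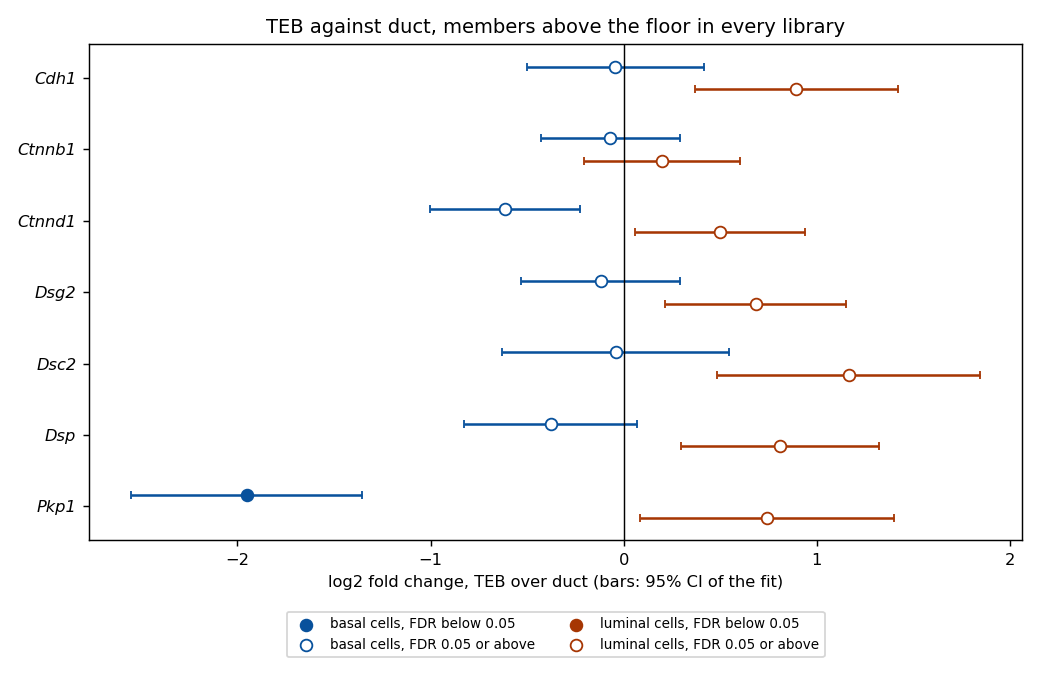
Log2 fold change of TEB over duct in basal and luminal cells for the 7 members above the floor in every library, with the 95% confidence interval of the edgeR fit as bars and filled points for an FDR below 0.05. Pkp1 in basal cells (-1.95) is the only filled point, and all 7 luminal values lie right of 0.

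Set side by side, the differences between TEBs and ducts were mostly near 0 in basal cells and above 0 in luminal cells. Between basal TEBs and basal ducts, 0 of the 10 were called higher and 1 lower (Pkp1), where 0.167% of all genes tested were called higher, 1.16% lower and 1.32% in either direction. All 10 had log2 differences below 0, with a median of -0.13 beside -0.03 over all genes tested, but 7 of the signs turned when single libraries were left out. In 2 of 10 members (Ctnnd1 and Pkp1) every TEB library was below every duct library, beside 11.9% of all genes.

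Between luminal TEBs and luminal ducts, 0 of the 10 members were called by edgeR's quasi-likelihood test, where 0.639% of all genes were called higher, 0.771% lower and 1.41% in either direction. At an unadjusted p under 0.05, 7 of the 10 were higher, beside 8.38% of all genes. DESeq2 and edgeR's likelihood ratio test each called 4 higher (Cdh1, Dsc2, Dsc3 and Dsp), beside 3.07% and 2.64% of all genes, and limma voom 2 (Cdh1 and Dsc2), beside 0.743%. For Dsc3 these calls rest on 0 counts in both luminal ducts and 0, 111 and 7 counts in luminal TEBs. The size of the Dsc2 difference depended on which luminal duct library was used. All 10 differences were above 0, with a median of 0.71 beside 0.04 over all genes. The signs of Cdh3 and Dsc3 carry little, since both genes were at or near 0 in luminal libraries. For Cdh3 the difference was 0.09 (SE 0.58) and ran from -0.693 to 3.213 with 1 library left out. In 8 of 10 every TEB library was above both duct libraries, beside 26.2% of all genes. Dsp is an example, at 1.75-fold (log2 difference 0.81, SE 0.24, edgeR FDR 0.114), and Dsg2 another at 1.61-fold (0.68, SE 0.22, FDR 0.141). The counts of members higher in luminal TEBs include Cdh1, whose reporter guided the dissection and set the gate.

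Several measures moved with this contrast. The mitochondrial share was 8.51% and 28.5% in luminal ducts and between 4.34% and 4.77% in luminal TEBs, and 6 basal markers summed to 80.7 and 222 CPM in luminal ducts and between 13.1 and 24.1 CPM in luminal TEBs. Their part in the luminal differences was not tested. Without composition scaling the median of all genes itself moved to 0.42 in this contrast, and the number of members called stayed at 0.

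Between basal and luminal ducts, 4 members were called higher in basal cells (Cdh3, Dsc3, Dsp and Pkp1) and 2 lower (Cdh1 and Pkp2), where 12.6% of all genes were called higher, 9.71% lower and 22.3% in either direction. Between basal and luminal TEBs, 3 were called higher (Cdh3, Dsc3 and Dsp) and 5 lower (Cdh1, Ctnnd1, Dsc2, Pkp1 and Pkp2), beside 13.2% of all genes higher, 11.8% lower and 25.1% in either direction. In ducts the libraries did not overlap for 6 members higher in basal cells and 2 lower, beside 24.8% and 21.2% of all genes, and in TEBs for 3 and 5, beside 22.6% and 27.2%. The 2 comparisons share no library. Cdh1 is in each of these counts of lower members, where it is a check of the gate and not a result.

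**Figure D4:**
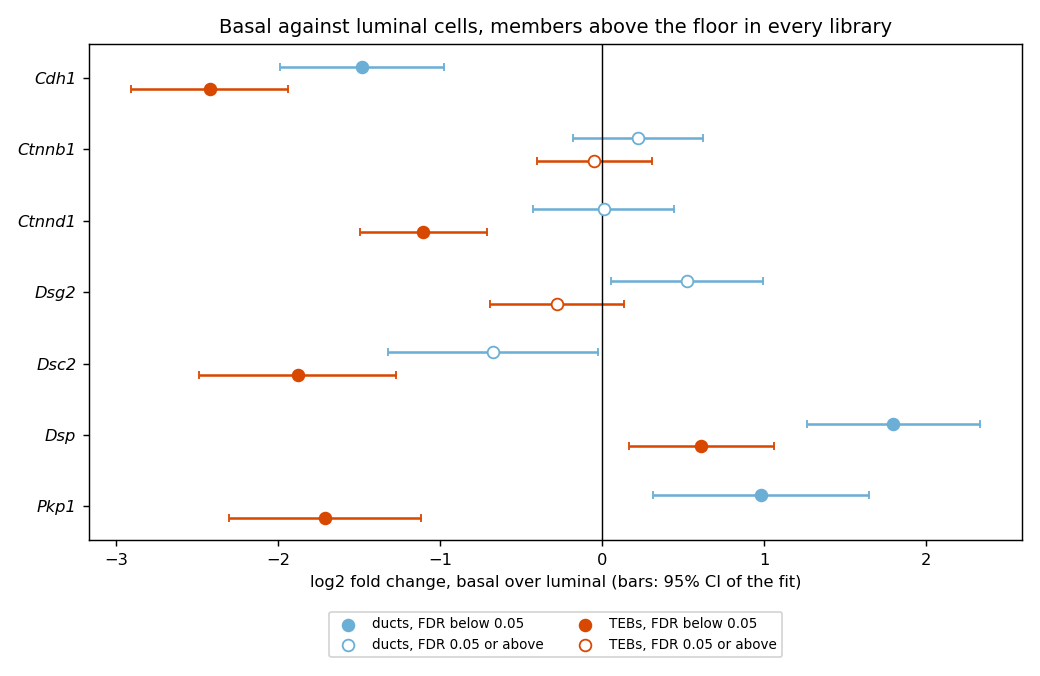
Log2 fold change of basal over luminal cells for the same 7 members, with ducts and TEBs as separate points, the 95% confidence intervals as bars and filled points for an edgeR FDR below 0.05. Pkp1 lies at 0.98 in ducts and at -1.71 in TEBs. In each of the 7 members the TEB value is left of the duct value, which follows from the signs of the basal and luminal changes.

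For the difference between the basal and the luminal change, 0 members were called higher and 1 lower (Pkp1), where 0.0806% of all genes were called higher, 0.363% lower and 0.443% in either direction. All 10 values were below 0, which follows from the signs of the basal and luminal changes, with a median of -1.15 beside -0.13 over all genes. Leaving out any of 6 libraries took the member count to 0, and leaving out luminal duct 1, with 1 luminal duct library remaining, took it to 4 lower (Cdh3, Ctnnd1, Dsc2 and Pkp1) while the count over all genes went from 77 to 753.

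The other genes of these junctions were read from wider lists. Of 11 other desmosome genes, 9 were tested: Dsg3, Pkp3 and Perp were called higher in basal cells of both structures, and the plakin scaffold genes Evpl and Ppl lower. That is 5 of 9 in each structure, beside 22.3% of all genes in ducts and 25.1% in TEBs. None of the 9 was called between TEBs and ducts, beside 1.32% of all genes in basal and 1.41% in luminal cells. Their median log2 difference there was -0.29 in basal and 0.74 in luminal cells, beside -0.03 and 0.04 over all genes. Dsg3, a desmoglein of stratified epithelia, was at 11.9, 4.79 and 6.95 CPM in basal ducts and at 0 counts in both luminal ducts, which made basal ducts at least 82.1-fold higher over the floor (edgeR FDR 0.00505). Perp, a membrane protein needed for desmosomes in skin, was 5.69-fold higher in basal ducts (edgeR FDR 0.000937) and 4.90-fold higher in basal TEBs (FDR 0.000443). The log2 difference of Perp in ducts, 2.51, was 3.69 without luminal duct 1 and 1.87 without luminal duct 3. Evpl, envoplakin, was 10.4-fold and 8.34-fold lower in basal cells of ducts and TEBs (edgeR FDR 4e-05 and 3.81e-05). Plakoglobin, Jup, the plaque partner of desmosomal cadherins, was called in no comparison.

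Of 16 other adherens junction genes, 14 were tested, and 11 were called between the layers in ducts (7 higher in basal cells, 4 lower) and 11 in TEBs (6 higher, 5 lower), where 22.3% and 25.1% of all genes were called. The nectins, adhesion proteins that act beside cadherins, were divided: Nectin4 was 48.3-fold lower in basal ducts and 65.8-fold lower in basal TEBs (edgeR FDR 8.05e-05 and 3.29e-05), and Nectin3 was 6.96-fold and 10.7-fold higher in basal cells (FDR 0.00276 and 0.000199). Ctnnd2, a neural relative of p120-catenin, was 34.5-fold and 49.5-fold higher in basal cells (FDR 0.000104 and 1.06e-05). These sizes depended on single libraries: without luminal duct 1 and without luminal duct 3 the log2 difference in ducts was 2.08 and 4.25 for Nectin3 (2.80 with both) and 6.77 and 4.41 for Ctnnd2 (5.11 with both), and that of Nectin4 in TEBs was -6.64 without basal TEB 3 (-6.04 with it). None of the 14 was called between TEBs and ducts, beside 1.32% of all genes in basal and 1.41% in luminal cells. Their median log2 differences there were -0.23 in basal and -0.03 in luminal cells.

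Vcl and Plekha7 were called for the difference between the 2 changes, in the direction of Pkp1. That is 2 of 14 called lower, beside 0.363% of all genes lower and 0.443% in either direction. Vcl, vinculin, which couples adherens junctions to actin, was at 686, 670 and 644 CPM in basal ducts, 401, 488 and 440 CPM in basal TEBs, 105 and 84.9 CPM in luminal ducts, and 146, 179 and 173 CPM in luminal TEBs (log2 value -1.40, SE 0.25, edgeR FDR 0.033). Plekha7, a partner of p120-catenin, was at 92.9, 95.6 and 89.4 CPM in basal ducts, 42.4, 68.8 and 56.8 CPM in basal TEBs, 24.5 and 24.6 CPM in luminal ducts, and 44.9, 44.9 and 44.7 CPM in luminal TEBs (log2 value -1.59, SE 0.28, edgeR FDR 0.033). In both genes the TEB libraries were all lower in basal and all higher in luminal cells. Taken singly, these patterns were seen in 11.9% and 26.2% of all genes. Both genes were named for their call on the same libraries, so the separation is a description. The call was lost for Vcl when any library other than basal TEB 2 or luminal duct 1 was left out (FDR 0.0531 to 0.135), and for Plekha7 on leaving out any of 8 libraries, the exceptions being basal TEB 1, basal TEB 2 and luminal duct 1 (FDR 0.0629 to 0.136).

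Of 20 other cadherins, 12 were tested, with 3 called higher in basal ducts (Cdh2, Cdh6 and Cdh11), 4 higher in basal TEBs (these and Cdh10) and Cdh13 lower in basal TEBs than in luminal TEBs. That is 3 of 12 in ducts and 5 of 12 in TEBs, beside 22.3% and 25.1% of all genes, so the share in ducts was near that of all genes. Cdh2 was at 63.0, 22.4 and 88.2 CPM in basal ducts and 103, 121 and 123 CPM in basal TEBs, against at most 2.59 CPM in any luminal library (edgeR FDR 0.0149 in ducts and 0.000452 in TEBs). Cdh11, a cadherin of mesenchymal cells, was at 15.6, 26.9 and 18.3 CPM in basal ducts and at most 0.888 CPM in luminal libraries (edgeR FDR 0.0043), and its highest value lay in basal duct 2, the library with the highest fibroblast sum. Cdh6 was at 6.11, 0.0263 and 5.77 CPM in basal ducts, 11.6, 8.82 and 2.91 CPM in basal TEBs and at most 1 count in any luminal library (edgeR FDR 0.0366 in ducts and 0.00464 in TEBs). Its duct libraries overlapped through basal duct 2, and the duct call was lost on leaving out any of 7 libraries, namely basal duct 1, basal duct 3, basal TEB 2, either luminal duct, luminal TEB 2 or luminal TEB 3 (FDR 0.0501 to 0.15).

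Cdh13, which encodes T-cadherin, a cadherin held to the membrane by a lipid anchor, was the only other cadherin called between TEBs and ducts. That is 1 of 12 in basal and 0 of 12 in luminal cells, beside 1.32% and 1.41% of all genes. The level of Cdh13 was 50.1, 20.8 and 44.5 CPM in basal ducts and 2.42, 9.29 and 1.76 CPM in basal TEBs, an 8.48-fold lower level (log2 difference -3.08, SE 0.60, edgeR FDR 0.0299). Luminal libraries lay between 12.8 and 24.5 CPM. The call was lost on leaving out any of 7 libraries, basal duct 1, basal duct 3, basal TEB 1, basal TEB 3 or any 1 luminal TEB library (FDR 0.0564 to 0.124). It was also lost without both libraries of highest mitochondrial share (FDR 0.0716) and with only the groups compared (FDR 0.0628), and the log2 difference was -4.26 without basal TEB 2.

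Of 11 transcription factors that act on the epithelial state, all 11 were tested, with 2 called higher and 1 lower in basal than in luminal ducts, 1 higher and 2 lower in basal than in luminal TEBs, and 1 (Snai2) between TEBs and ducts. The 3 of 11 called between the layers in each structure were near the share of all genes, 22.3% and 25.1%. Between TEBs and ducts, 0 of 11 were called in basal and 1 of 11 in luminal cells, beside 1.32% and 1.41% of all genes. Snai2, a repressor of E-cadherin, was at 46.4, 69.5 and 66.1 CPM in basal ducts and 72.0, 61.5 and 69.7 CPM in basal TEBs, with 68 and 3 counts in luminal ducts and 0, 4 and 0 counts in luminal TEBs. It was called higher in basal than in luminal cells in both structures (edgeR FDR 0.000227 in ducts and 4.13e-06 in TEBs) and lower in luminal TEBs than in luminal ducts (FDR 0.0331). The last call rested on the 68 counts (1.55 CPM) of luminal duct 1 and was lost without that library (FDR 0.354), and also without basal duct 1, basal duct 3, basal TEB 3 or any 1 luminal TEB library (FDR 0.0526 to 0.138). Grhl1, an activator of desmosomal cadherin genes, was 5.86-fold lower in basal ducts and 6.23-fold lower in basal TEBs (edgeR FDR 0.00049 and 0.0002), the log2 difference in ducts being -2.55 and, without basal duct 1, -3.20. Snai1 was called higher in basal ducts, where both luminal ducts held 0 counts, and Ovol1 lower in basal TEBs.

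The genes whose log2 CPM followed Cdh1 most closely over the 11 libraries, out of 7690 genes searched, were Plrg1 (Pearson r 0.988), Taldo1 (0.980), Myof (0.980), Hsd17b4 (0.979) and Serinc2 (0.979). Among those nearest to Cdh3 were Adamts7 (0.995), Tgfbr3 (0.995), Trp63 (0.991) and Matn2 (0.991). Within the members, Cdh3 and Dsc3 had r = 0.93 and Cdh1 and Pkp2 r = 0.94, while Pkp1 was closest to Ctnnd1 (r = 0.83). These points share 2 sorted layers and the library sizes, and the correlations are given as a description only.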

How the data were processed

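The authors micro-dissected and sorted the cells, prepared unstranded TruSeq RNA v2 libraries, aligned paired reads to mm10 and counted them by Entrez gene with Rsubread (featureCounts) and its inbuilt RefSeq annotation, with versions not given in the sources used here. The deposited values are these raw counts per gene, not normalized, and the column of each of the 11 libraries equalled that library's own table. Gene length, in bases, came from the same table. Symbols were matched by Entrez identifier for 25275 of 27179 rows. Coordinates, overlapping genes and start-site windows are from RefSeq (GRCm38.p6, the assembly of mm10).

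The versions used were edgeR 4.0.16 for the tests, DESeq2 1.42.0 and limma 3.58.1 for alternatives, all under R 4.3.3. Genes were filtered by filterByExpr (minimum count 10, minimum total 15), library sizes were TMM-scaled, and 4 groups were fitted in 1 model with the quasi-likelihood test, adjusted over all 17370 genes. The paper names glmFit, so the likelihood ratio test is among the alternatives. The standard error is the absolute log2 fold change over the square root of F. CPM and RPKM use TMM-scaled library sizes, and log2 CPM a prior count of 2. The common biological coefficient of variation was 0.704. Intervals come from the fit and include the spread between libraries, whereas the floor of 3 counts covers counting error only.

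The members, lists and tests were chosen with earlier results of these data known, which also limits every count of members set beside a share of all genes. Named genes were all 10 members, list genes past the threshold in a TEB comparison or the interaction, the 3 of each list with the largest change between layers in both structures, and the 5 genes most like Cdh1 and Cdh3, of which 1 is not reported here; Pkp3, Jup, Ppl, Cdh10, Snai1 and Ovol1 were named after their values were seen. Replicate numbers were not taken as pairs. The study's other assays and the paper's own results were not used here.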

Additional observations from a re-analysis of the deposited data

Results flagged for a closer look

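Pkp1, Vcl and Plekha7 were singled out because the test of the difference itself found that the change from duct to TEB was not the same in basal and luminal cells. For Pkp1 the basal log2 change minus the luminal one was -2.69 (edgeR FDR 0.0199), for Vcl -1.40 (FDR 0.033) and for Plekha7 -1.59 (FDR 0.033). In all 3 genes every basal TEB library lay below every basal duct library, beside 11.9% of all genes. Every luminal TEB library lay above both luminal duct libraries, beside 26.2% of all genes. The share of all genes with both was not computed. The 3 genes were picked by the test on these same libraries, so the separation is a description and adds no support. The log2 values of the 3 genes rest on 2 luminal duct libraries, of which luminal duct 3 had 28.5% mitochondrial counts. Without that library, which leaves 1 in the group, the log2 values were -2.49, -1.26 and -1.60 and none was called (FDR 0.0533, 0.0653 and 0.0653). The calls of all 3 genes were also lost without basal duct 1 (6.66% mitochondrial counts), basal TEB 3 (17.8%) or any 1 luminal TEB library (4.34% to 4.77%). The part of the mitochondrial share in the 3 log2 values was not tested.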

How the results depend on the processing

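The limits are 2 luminal duct libraries, so that leaving out 1 leaves a lone library assumed to vary like the other groups, and libraries with up to 37.5% mitochondrial counts. Over all alternatives, 1863 gene-level values kept direction and side of the threshold, 107 lost a call, 33 gained one and 34 turned sign; the causes were not tested. Member calls between basal TEBs and ducts (1) became 0 without composition scaling and 2 with DESeq2. Those between luminal TEBs and ducts (0) became 4 with the likelihood ratio test, 4 with DESeq2, 2 with limma voom, 1 with voom quality weights, 2 with only the groups compared, 1 without basal duct 2 and luminal duct 3 (chosen after seeing the data), and 0 to 2 with 1 library left out. Calls for the difference between changes (1) became 0 without composition scaling, 4 with the likelihood ratio test, 4 with DESeq2, 0 at an FDR of 0.01, and 0 to 4 with 1 library left out. Those between layers (6 in ducts, 8 in TEBs, Cdh1 included) stayed between 5 and 7 and between 6 and 9. Over all genes the counts were 230 (57 to 874), 245 (10 to 1305), 3878 (2318 to 5122), 4354 (2745 to 7140) and 77 (7 to 753), in the order basal change, luminal change, ducts, TEBs and difference between changes. Without composition scaling the all-gene median log2 difference moved to -0.16, 0.42, 0.19, -0.35 and -0.63 in that order.

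The log2 values that turned sign lay mostly near 0. With 1 library left out, the basal TEB against duct values ran from -0.267 to 0.09 for Cdh1, -0.201 to 0.114 for Cdh3, -0.169 to 0.028 for Ctnnb1, -0.272 to 0.003 for Dsg2, -0.279 to 0.127 for Dsc2, -0.365 to 0.011 for Dsc3 and -6.908 to 2.006 for Pkp2. Others ran from -0.693 to 3.213 for Cdh3 in luminal TEBs against ducts, -0.162 to 0.204 for Ctnnd1 between layers in ducts, -0.128 to 0.036 for Ctnnb1 between layers in TEBs, and, for the difference between changes, -3.241 to 0.665 for Cdh3 and -7.356 to 1.542 for Pkp2. Without both libraries of highest mitochondrial share the values were 0.028 for Ctnnb1 in the basal change, -0.676 for Cdh3 in the luminal change, -0.158 for Ctnnd1 in ducts, 0.035 for Ctnnb1 in TEBs and 0.475 for Cdh3 in the difference between changes. Without basal duct 2 and luminal duct 3 they were -0.676 for Cdh3 in the luminal change, -0.046 for Ctnnd1 in ducts and 0.506 for Cdh3 in the difference. Ctnnd1 in ducts was also -0.009 with DESeq2 size factors, -0.009 with DESeq2, -0.015 with upper-quartile scaling, 0 with limma voom and -0.009 with quality weights.

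Same-numbered libraries correlated at r = -0.068 to 0.163 over 15 pairs, 4 of them above 0.1, beside 2 of 30 pairs with other numbers. Each r was taken after removal of group means, which makes the 2 luminal duct libraries mirror each other. These values do not settle whether same-numbered libraries belong together, and the replicate numbers were not taken as pairs. With the replicate number as a block, member calls were 1, 0, 5, 7 and 1 in the order above, and the calls of Pkp1 in ducts (edgeR FDR 0.0691) and Dsp in TEBs (FDR 0.072) were lost, as were those of Cdh13 in the basal change (FDR 0.0524), Snai2 in the luminal change (FDR 0.0716), Cdh6 in ducts (FDR 0.0665), and Vcl (FDR 0.0866) and Plekha7 (FDR 0.0792) in the difference between changes. It ended no other call of a named gene.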
